A study of Mus musculus with 4 samples.

Results

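The genes described here are 42 genes of DNA replication and S phase, chosen by name: every non-control probe whose gene name in the scanner files is on the list was taken, which gave 55 probes covering all 42 genes, of 29875 genes on the array. They were measured in ureters of mouse embryos of the NMRI strain at stage E14.5 (days of embryonic life), on 4 two-colour arrays that each set mutant RNA in one channel against control RNA in the other. The mutants carried Tbx18(cre/+) together with Fgfr1(fl/fl) and Fgfr2(fl/fl) and are called cDKO, for conditional knockout of both fibroblast growth factor (FGF) receptor genes. The controls carried Fgfr1(fl/?) and Fgfr2(fl/?), with no cre allele named and the second allele of each receptor gene not specified. Tbx18 is active in the mesenchyme around the ureteric epithelium, and its cre recombines floxed genes there, while the RNA came from whole dissected ureters, epithelium included. Replicates 1 and 4 carried female labels and replicates 2 and 3 male labels, and cDKO RNA was in the Cy5 channel on replicates 1 and 3 and in the Cy3 channel on replicates 2 and 4. The labels do not say how many embryos stood behind an extract, so the p-values speak only of the variation among these 4 hybridised pairs, which may be technical.

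Cells copy their genome once per division. In G1, the origin recognition complex (ORC), CDC6 and CDT1 load the MCM2-7 helicase onto DNA, and at the start of S phase MCM10, CDC45 and the GINS complex turn it into a running fork, where polymerases, the sliding clamp PCNA and its loader RFC copy both strands. Many of these genes are switched on together at the end of G1 by E2F transcription factors, which cyclin E and its kinase release from the RB proteins. In the embryonic ureter both the mesenchyme and the epithelium still divide at this stage, and FGF signalling is a known stimulus for cell division. In whole-tissue RNA, a lower share of cells in S phase and less RNA per S-phase cell cannot be told apart.

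A shared promoter sequence, which the choice of genes did not use, is shown first. RefSeq promoter windows (GRCm38.p6, from 250 bases before to 50 after each start) were found for 34 of the 42 genes, 40 windows in all. They were searched on both strands for 4 spellings of the core E2F site, the form TTCCCGC, the form TTGGCGC, the form TTCGCGC and the form TTGCCGC, which can overlap each other across strands, and for TTTGAA, the core of the cell cycle homology region (CHR) that is known from promoters of G2 and mitosis genes. E2F letters were present in 25 of the 40 windows (62.5%), against 9.57% of all 32851 windows in the table and 14.99% of the 15792 windows of genes tested here. CHR letters showed the other arrangement. They were in 5 of the member windows (12.5%), against 17.9% of all windows and 12.5% of the windows of genes tested. In windows of mitosis genes they were in 21 of 29 (72.4%), and E2F letters in 17.2%. The median GC content was 59.2% in member windows, 59% in windows of mitosis genes and 59.7% in those of genes tested. A match is only a run of letters and not a measured binding site.

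**Figure D1:**
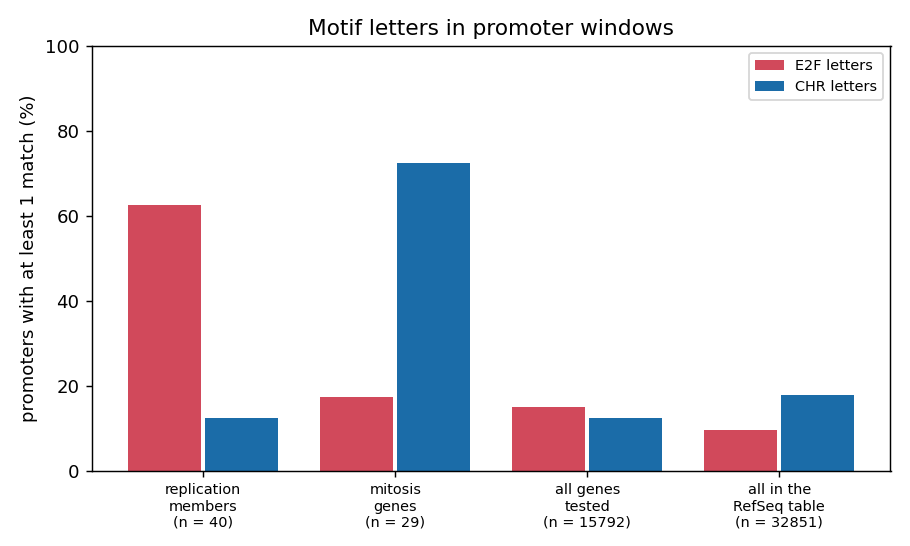
Share of promoter windows (vertical axis, percent) with at least 1 match to E2F letters (red) or CHR letters (blue) in replication members, mitosis genes, all genes tested and all windows of the RefSeq table; the bars are counts of windows and carry no error. E2F letters stand at 62.5% in the members and 17.2% in mitosis genes, CHR letters at 12.5% and 72.4%.

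The stretches before the start of 5 members show how the letters lie. Mcm6 and Mcm5, of the helicase, and Chaf1a have E2F letters more than once, Uhrf1 (the more upstream of its windows) has them 48 bases before its start, and Rpa1, the member with the smallest p below, has none in its window. E2F letters are in capitals, and each stretch is the 250 bases before the annotated start, 5′ to 3′ on the gene's strand, in GRCm38.p6.
Mcm6, chr1:128359706-128359955 (-): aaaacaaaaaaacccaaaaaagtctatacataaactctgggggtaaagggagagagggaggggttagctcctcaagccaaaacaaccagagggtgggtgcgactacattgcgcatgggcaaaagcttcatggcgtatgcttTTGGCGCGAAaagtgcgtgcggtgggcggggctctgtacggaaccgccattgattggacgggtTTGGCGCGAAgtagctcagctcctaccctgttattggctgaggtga
Mcm5, chr8:75109259-75109508 (+): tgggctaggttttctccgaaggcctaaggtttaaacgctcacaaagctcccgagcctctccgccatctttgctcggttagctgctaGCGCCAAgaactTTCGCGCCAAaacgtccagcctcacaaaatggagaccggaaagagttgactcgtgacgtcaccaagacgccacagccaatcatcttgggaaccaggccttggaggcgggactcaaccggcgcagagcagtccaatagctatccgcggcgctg
Chaf1a, chr17:56040166-56040415 (+): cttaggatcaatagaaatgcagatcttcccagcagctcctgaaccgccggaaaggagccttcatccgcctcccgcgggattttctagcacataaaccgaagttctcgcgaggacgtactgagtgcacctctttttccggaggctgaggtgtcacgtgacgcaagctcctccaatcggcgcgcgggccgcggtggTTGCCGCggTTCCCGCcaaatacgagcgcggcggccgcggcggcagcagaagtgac
Uhrf1, chr17:56303087-56303336 (+): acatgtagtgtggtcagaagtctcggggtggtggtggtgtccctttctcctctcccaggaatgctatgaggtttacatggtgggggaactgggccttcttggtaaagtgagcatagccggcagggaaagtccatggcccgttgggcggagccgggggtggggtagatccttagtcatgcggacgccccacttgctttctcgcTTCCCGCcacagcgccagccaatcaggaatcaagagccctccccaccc
Rpa1, chr11:75348384-75348633 (-): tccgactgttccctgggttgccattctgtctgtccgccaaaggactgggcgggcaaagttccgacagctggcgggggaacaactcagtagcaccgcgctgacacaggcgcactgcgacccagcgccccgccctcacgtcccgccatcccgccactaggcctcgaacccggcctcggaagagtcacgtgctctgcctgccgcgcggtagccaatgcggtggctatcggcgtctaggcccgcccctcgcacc

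In Mcm6 the same 10 letters occur at 2 places, each an overlap of TTGGCGC on one strand and TTCGCGC on the other, beginning 109 and 46 bases before the start. Mcm5 has one such overlap, beginning 152 bases before the start, and a further match 164 bases before it. The presence of E2F letters did not sort the members by their ratio. The median log2 ratio of cDKO over control was 0.10 for the 22 members with E2F letters in a window (16 above 0) and 0.10 for the 12 without (8 above 0), which is a description over genes and not a test.

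Of the 42 genes, 41 were measured well enough to test, and none was called as changed between cDKO and control ureters at an adjusted p under 0.05 in the fit with a dye term. With the slide added as a block, 7 were called (17.1%), against 12.5% of all genes, and they are given with that p below. Where no fit is named, "called" refers to the fit without the block. The test without the block, limma fitted over all 19365 genes with Benjamini-Hochberg adjustment, called 165 genes (107 higher and 58 lower in cDKO), or 0.852%. The smallest adjusted p among the members was 0.0953, for Rpa1. At an unadjusted p under 0.05 there were 11 members of 41 (26.8%), 9 higher and 2 lower, against a background of 19.6% of all genes. The median log2 ratio over the members was 0.09, against 0.009 over all genes tested, and 27 of 41 (65.9%) lay above 0, against 52.7%. The members' median on each array was -0.03, 0.20, 0.008 and 0.10 on replicates 1 to 4, so its spread between arrays (SD 0.102) was larger than the median itself.

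A missed threshold does not show equal levels, but the intervals limit how far most members can have moved in whole-ureter RNA. The 95% confidence interval of the ratio lay wholly within a 1.5-fold change in either direction for 39 of the 41 members. The share of all genes within that bound was not counted, so this is not particular to the members. The median SE was 0.080 for the members and 0.082 for all genes. The members outside the bound were Cdt1 (1.29-fold, from 1.07 to 1.57) and Uhrf1 (1.39-fold, from 1.06 to 1.81). Pcna, the sliding clamp and a common marker of dividing cells, stood at 1.08-fold (0.94 to 1.25), and Mcm7 at 1.03-fold (0.89 to 1.18). These intervals rest on 4 arrays and on a spread shared across genes by the fit.

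**Figure D2:**
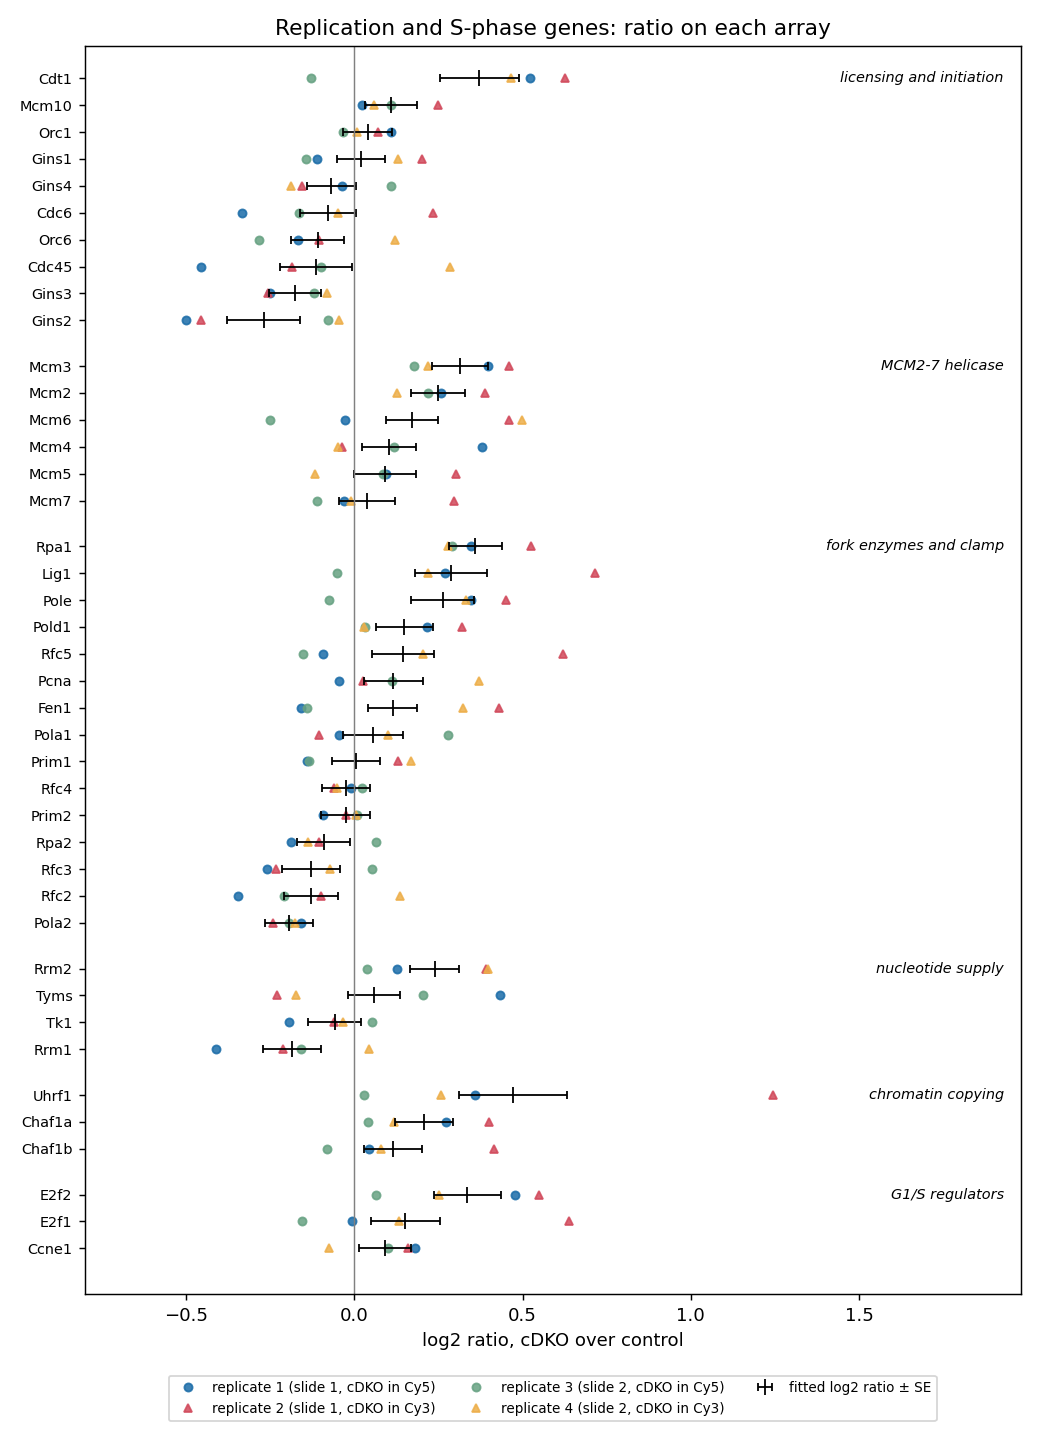
Log2 ratio of cDKO over control (horizontal axis) for the 41 measured members, grouped by role; coloured symbols are the 4 arrays (circles, cDKO in Cy5; triangles, cDKO in Cy3) and black bars the fitted ratio ± SE. Rpa1, Mcm3 and Mcm2 lie above 0 on all arrays, Pola2 lies below 0 on all arrays, and Uhrf1 reaches 1.25 on replicate 2.

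Among the licensing and initiation factors, 4 of 10 lay above 0 and 6 below, with a median log2 ratio of -0.07 and none called. Cdt1, which brings the MCM helicase to origins, had ratios of 0.52, 0.63, -0.13 and 0.47 on replicates 1 to 4. It was higher in cDKO on all arrays but replicate 3, and the fit gave 0.37 ± 0.12 (SE, n = 4; limma adjusted p = 0.168, and 0.0225 with the slide as a block). Gins2, a GINS subunit, was the lowest member, with ratios of -0.50, -0.45, -0.08 and -0.04 and a fitted value of -0.27 ± 0.11 (adjusted p = 0.241, and 0.0404 with the slide as a block). Both low values came from replicates 1 and 2, which lay on slide 1. Gins3 was also below 0 on all arrays (-0.18 ± 0.08, from -0.26 to -0.08), Gins4 stood at -0.07 ± 0.07 and Gins1 at 0.02 ± 0.07, which turned to -0.02 with the scanner software's own signals. The other initiation factors lay close to 0. Mcm10 was above 0 on all arrays (0.11 ± 0.08), while Orc1 (0.04), the ORC subunit Orc6 (-0.11) and the helicase activator Cdc45 (-0.11 ± 0.11) changed sign between arrays.

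For the helicase itself, all 6 genes of MCM2-7 had a fitted ratio above 0 (median 0.14), and none was called. The difference from the licensing and initiation factors was not tested. On replicates 1 to 4, 4, 5, 4 and 3 of the 6 lay above 0. Mcm7 turned to -0.03 with median centring in place of loess, and within slide 2 Mcm5 (-0.02) and Mcm7 (-0.06) lay below 0. Mcm3 had ratios of 0.40, 0.46, 0.18 and 0.22 and a fitted value of 0.31 ± 0.08 (adjusted p = 0.129, and 0.0240 with the slide as a block). Mcm2 had 0.26, 0.39, 0.22 and 0.13, with a fitted value of 0.25 ± 0.08 (adjusted p = 0.173). These were the only helicase genes that were higher in cDKO on all 4 arrays. Mcm6 split by dye orientation, with -0.03 and -0.25 where cDKO was in Cy5 and 0.46 and 0.50 where it was in Cy3, and a fitted value of 0.17 ± 0.08; its dye effect was not called (adjusted p = 0.413). Mcm4 (0.10), Mcm5 (0.09) and Mcm7 (0.04) each had arrays on both sides of 0. The MCM2-7 proteins form one complex, but the test of a difference between its genes was not made.

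Mcm3 was read by a pair of overlapping probes, and their sequences show how close such repeat measurements come. The probes lie on chromosome 1 of mm9, on the minus strand, the brighter at 20793119 to 20793178 and the other at 20793136 to 20793195. They share 43 bases and differ in 1 of them (A14G, counted from the first base shown, less bright probe first). Shown are the first 30 of the shared bases, with the differing base in capitals.
Mcm3, less bright probe: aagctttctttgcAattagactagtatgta
Mcm3, brighter probe: aagctttctttgcGattagactagtatgta

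The brighter probe gave 0.31 ± 0.08 and the less bright 0.26 ± 0.08, and both were above 0 on all arrays. Of the 10 members with several kept probes, 8 had all probes on one side of 0, a share not counted over 4910 such genes. Cdc6, which loads the helicase together with ORC, did not. Its brighter probe (chromosome 11, 98782986 to 98783045, plus strand) gave -0.08 ± 0.08, with -0.33, 0.23, -0.16 and -0.05 on the 4 arrays. The other probe (98785169 to 98785228) gave 0.29 ± 0.11, with 0.59, 0.33, 0.007 and 0.24, above 0 on all arrays (adjusted p over probes = 0.224). The sign of Cdc6 therefore depended on the probe. The first 30 bases of each Cdc6 probe are shown because they share no overlap and so read separate stretches of the transcript.
Cdc6, brighter probe: tgtaaagaactttgaagtttagaaggatga
Cdc6, less bright probe: ttaagaaccagattaagtttccatagtgtc

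Prim2 also had probes on both sides of 0, at -0.03 ± 0.07 and 0.05 ± 0.11. Which exon or untranslated part a probe lies in was not looked up, since no mm9 annotation was used here.

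Among the 15 genes of the fork, 9 lay above 0 and 6 below (median 0.06), and none was called. Rpa1, the large subunit of the protein that coats single-stranded DNA, had the smallest p of all members, with ratios of 0.35, 0.52, 0.29 and 0.28 on replicates 1 to 4. Its control levels were 14.76, 14.73, 14.97 and 15.02 (log2 intensity) and its cDKO levels 15.11, 15.25, 15.26 and 15.30. The fitted ratio was 0.36 ± 0.08 (adjusted p = 0.0953, and 0.0160 with the slide as a block), or 1.28-fold (95% interval 1.13 to 1.46), and its second probe gave 0.22 ± 0.08. Rpa2, of the same complex, stood at -0.09 ± 0.08. Lig1, the ligase that joins Okazaki fragments, had 0.27, 0.71, -0.05 and 0.22 (0.29 ± 0.11, adjusted p = 0.22, and 0.0347 with the slide as a block), and Pole, the catalytic subunit of the leading-strand polymerase, had 0.35, 0.45, -0.08 and 0.33 (0.26 ± 0.09, adjusted p = 0.201). Both were below 0 on replicate 3 alone.

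Pola2, a subunit of the polymerase that starts new strands, was the fork gene with the smallest p on the lower side. Its ratios of -0.16, -0.24, -0.19 and -0.17 on the 4 arrays were close together, and the fitted value was -0.19 ± 0.07 (adjusted p = 0.216). Its partners did not share that direction on all arrays. Pola1 stood at 0.06 ± 0.09, and the primase genes Prim1 and Prim2 at 0.006 ± 0.071 and -0.03 ± 0.07. Of the clamp loader, Rfc2 (-0.13), Rfc3 (-0.13) and Rfc4 (-0.02) lay below 0 and Rfc5 (0.14 ± 0.09) above, the last with 0.62 on replicate 2 and -0.15 on replicate 3. Pcna had -0.04, 0.03, 0.11 and 0.37 (0.12 ± 0.09). Pold1, of the lagging-strand polymerase, was above 0 on all arrays (0.15 ± 0.09), and Fen1, which trims Okazaki fragments, was above 0 only where cDKO was in Cy3 (0.43 and 0.32, against -0.16 and -0.14).

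**Figure D3:**
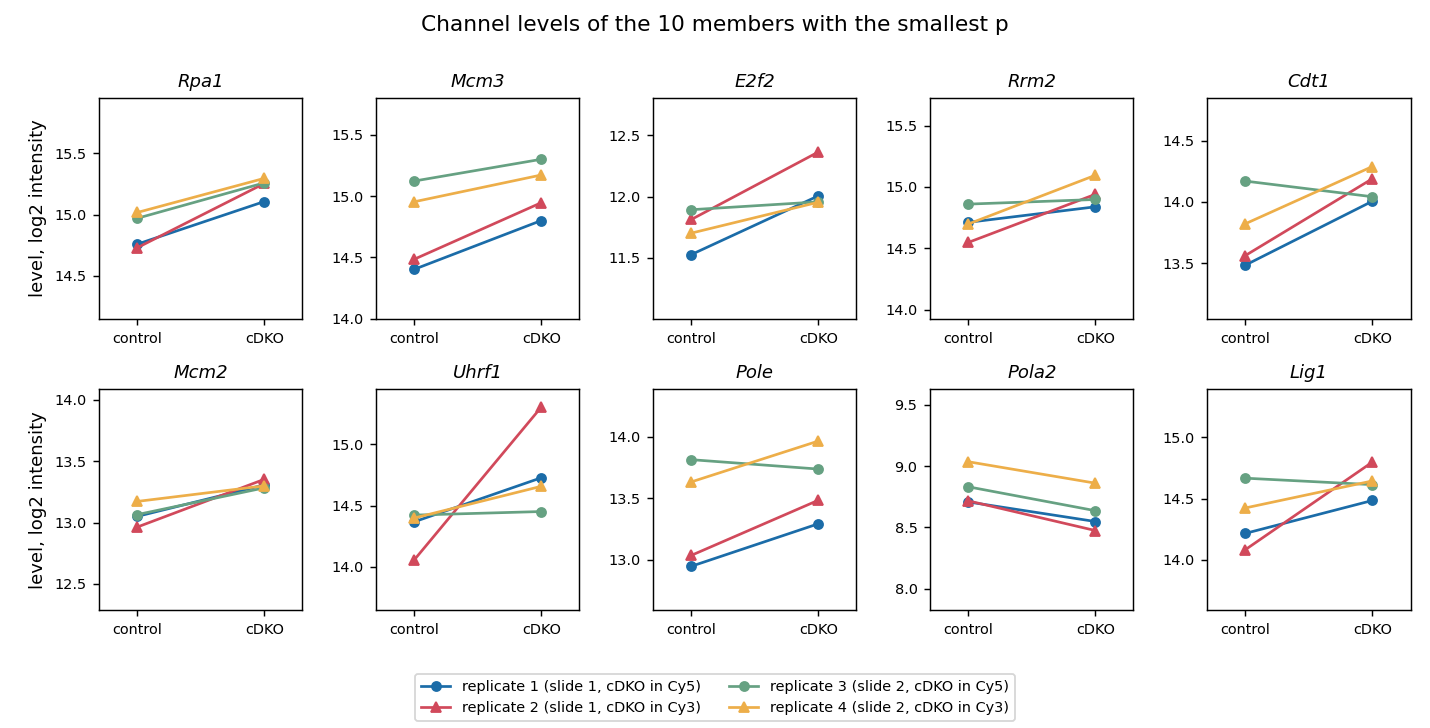
Channel levels (vertical axis, log2 intensity after loess and scaling between arrays) of the 10 members with the smallest p, in control and cDKO, with 1 line per array; each panel spans the same range of 1.8 log2 units. Rpa1, Mcm3, Mcm2, E2f2, Rrm2 and Uhrf1 slope up on all arrays, Pola2 slopes down on all, and Cdt1, Pole and Lig1 slope down on replicate 3 only.

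Genes of nucleotide supply lay on both sides of 0, and none was called. Rrm2, the S-phase subunit of ribonucleotide reductase, had 0.13, 0.39, 0.04 and 0.40 (0.24 ± 0.07, adjusted p = 0.16). Its partner Rrm1 had -0.41, -0.21, -0.16 and 0.04 (-0.18 ± 0.09, adjusted p = 0.3). The subunits thus lay on opposite sides, without either passing the test. Thymidine kinase Tk1 (-0.06 ± 0.08) was near 0, and thymidylate synthase Tyms (0.06 ± 0.08) split by dye orientation, at 0.43 and 0.20 with cDKO in Cy5 and -0.23 and -0.17 with cDKO in Cy3.

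The 3 genes that copy chromatin and DNA methylation behind the fork all had fitted ratios above 0, and none was called. Uhrf1, which brings the maintenance methyltransferase to newly copied DNA, had the largest fitted ratio of all members and the widest spread. Its ratios were 0.36, 1.25, 0.03 and 0.26 on replicates 1 to 4, with control levels of 14.37, 14.06, 14.42 and 14.40 and cDKO levels of 14.73, 15.30, 14.45 and 14.66. Replicate 2 had the highest ratio, and the fitted value was 0.47 ± 0.16 (limma adjusted p = 0.187, and 0.0135 with the slide as a block). Without replicate 4 it was called (0.72, adjusted p = 0.0358). Its second probe gave 0.29 ± 0.09, with 0.27, 0.57, -0.12 and 0.42. Chaf1a and Chaf1b, subunits of the histone chaperone CAF-1, stood at 0.21 ± 0.09 (above 0 on all arrays) and 0.11 ± 0.09.

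Of the regulators of the G1/S step, 3 of 4 could be tested and had ratios above 0. E2f2, an activating E2F factor, had 0.48, 0.55, 0.06 and 0.25 (0.34 ± 0.10, adjusted p = 0.156, and 0.0193 with the slide as a block) and was higher in cDKO on all arrays. E2f1 had -0.007, 0.64, -0.16 and 0.13 (0.15 ± 0.10), so its value rested largely on replicate 2. Cyclin E1 (Ccne1) stood at 0.09 ± 0.08. Cyclin E2 (Ccne2) had 1 probe, which did not pass the filter: cDKO replicates 1 to 4 had 4, 3, 1 and 3 spots clear of background, and control replicates 4, 4, 1 and 0, where 3 were required on every array of a genotype. Its ratio without the filter was 0.03.

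Sign agreement over arrays was looked at for the whole set. A ratio above 0 on all 4 arrays was found for 9 members (22%), against 13.4% of all genes, and below 0 on all 4 for 3 members (7.32%), against 11.8%. The 9 members were Mcm10, Mcm2, Mcm3, Pold1, Rpa1, Rrm2, Uhrf1, Chaf1a and E2f2, and the 3 were Gins2, Gins3 and Pola2. Such agreement was not particular to the members. The 41 other replication genes described below had the same counts, 9 above and 3 below. The 32 mitosis genes had 7 and 3, and the 26 further G1/S control genes 9 and 1. For 17 of the 41 members the dye term of the fit was larger in size than the cDKO effect. The share of all genes with a larger dye term was not counted, so this count cannot say whether the members differ from other genes. No gene had a called dye effect in limma (lowest member adjusted p = 0.413). Between arrays with female and male labels, limma called no difference in the ratio of any of the 19365 genes tested, members included. At an unadjusted p under 0.05 there were 0 members. With so few arrays per label, the test cannot show that the labels made no difference.

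The arrays lay on 2 slides, each with its own scan, and the members differed more from 0 on slide 1. The mean ratio was larger in size on slide 1 (replicates 1 and 2) than on slide 2 for 37 of 41 members, against 62.6% of all genes. The members' median was 0.13 on slide 1 and 0.02 on slide 2. Cdt1 was at 0.57 and 0.17, Uhrf1 at 0.80 and 0.14, E2f2 at 0.51 and 0.16, and Gins2 at -0.48 and -0.06, while Rpa1 (0.44 and 0.28), Rrm2 (0.26 and 0.22) and Pola2 (-0.20 and -0.18) differed less. No member had a called slide difference in limma (lowest adjusted p = 0.164). Of all 19365 genes only 173 had one, so this does not set the members apart. At an unadjusted p under 0.05 there were 6 members. The share of all genes was not counted, so this count cannot be read as a trait of the members. The 7 members called with the slide as a block beside the dye were Cdt1, E2f2, Lig1, Mcm3, Rpa1 and Uhrf1 above 0 and Gins2 below 0, with adjusted p between 0.0135 and 0.0404. Blocking on the slide removes variation between slides from the residuals and leaves a single degree of freedom for them (1). Within slide 1 and within slide 2 no member was called (lowest adjusted p = 0.0609 and 0.712).

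**Figure D4:**
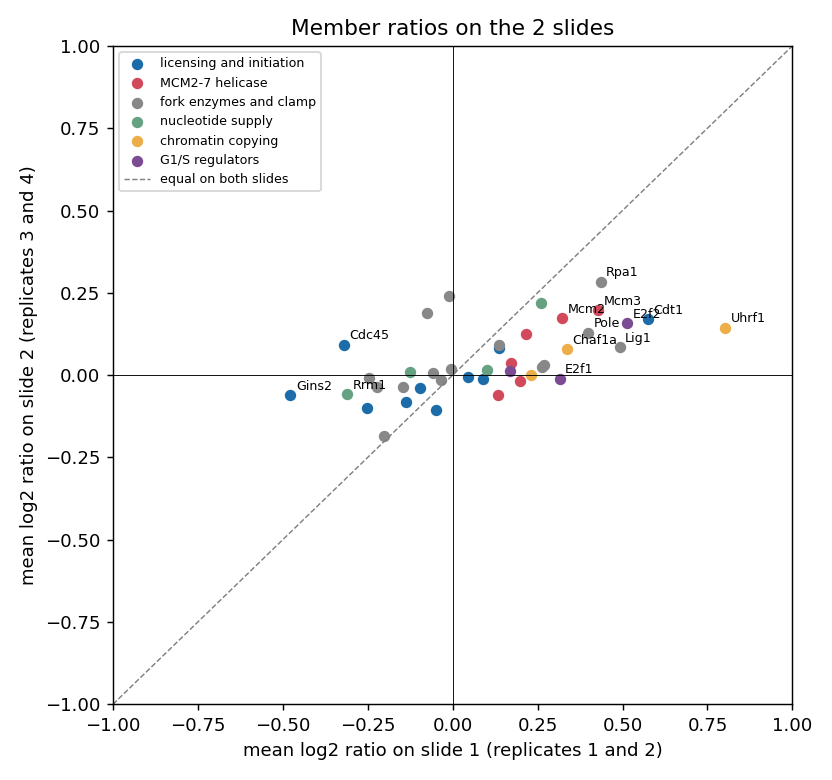
Mean log2 ratio of each member on slide 1 (horizontal axis) and slide 2 (vertical axis), coloured by role, with a dashed line where both are equal; members beyond 0.3 in size on slide 1 are named. Most points lie nearer to 0 on the vertical than on the horizontal axis, with Uhrf1 farthest out at 0.80 on slide 1 and 0.14 on slide 2.

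Across the 41 members, the Pearson correlation of the ratios was 0.61 between replicates 1 and 2, 0.60 between 2 and 4, 0.49 between 1 and 3, 0.27 between 1 and 4, 0.01 between 2 and 3 and -0.18 between 3 and 4. Over all genes the same pairs gave 0.51, 0.34, 0.41, 0.26, 0.006 and 0.11. Replicates 1 and 2 share a slide, and replicates 1 and 3 and replicates 2 and 4 share a dye orientation. Genes are not independent replicates, so these values only describe the arrays.

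Related genes that are no members were counted in the same fit. Of 41 other replication genes none was called, with 23 above 0 and a median of 0.01. The pair with the smallest p were Orc5, an ORC subunit, at -0.34 ± 0.08 (adjusted p = 0.1; -0.20, -0.42, -0.13 and -0.60 on the arrays) and Ticrr, which helps to start replication forks, at 0.54 ± 0.13 (adjusted p = 0.112; 0.74, 0.89, 0.13 and 0.38). Of 26 further G1/S control genes none was called either, with 19 above 0 (73.1%), a median of 0.14, and 10 of 26 at an unadjusted p under 0.05 (9 higher and 1 lower in cDKO), a larger share than the 19.6% of all genes; the difference from the members was not tested. There Mycn stood at 0.40 ± 0.10 (adjusted p = 0.109) but at -0.13 on replicate 4, and E2f8, a repressive E2F factor, at 0.42 ± 0.10 (adjusted p = 0.109) with all arrays above 0. Of 32 mitosis genes none was called, 16 lay above 0 and the median was 0.008. Aurkb, the mitotic kinase Aurora B, had 0.36, 0.36, 0.35 and 0.30 (0.34 ± 0.07, adjusted p = 0.0853), and the checkpoint kinase gene Ttk had -0.42, -0.72, -0.10 and -0.34 (-0.40 ± 0.10, adjusted p = 0.116). The medians of the members (0.09) and of mitosis genes (0.008) were not tested against each other.

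**Figure D5:**
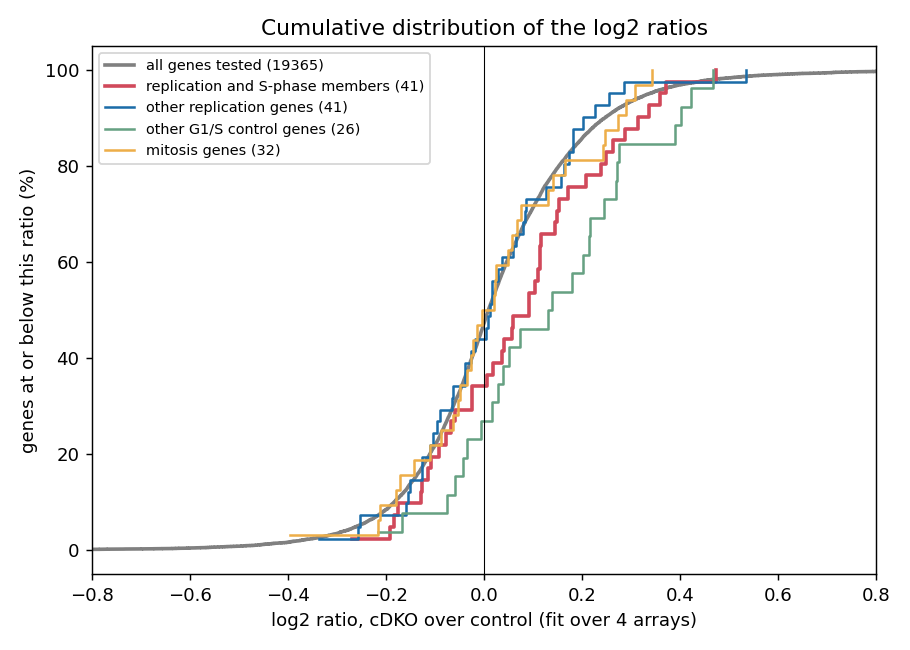
Share of genes (vertical axis, percent) at or below each log2 ratio of cDKO over control (horizontal axis) for all genes tested, the members and 3 related lists. The curve of the members lies to the right of that of all genes in its middle part (median 0.09 against 0.009), the mitosis and other replication lists follow all genes (0.008 and 0.01), and the G1/S control genes lie farthest to the right (0.14).

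Each array had 157716 spots for 39429 probes. The channels of an array differed in brightness before normalization, most on replicate 2, with a median spot signal of 138.7 in the cDKO and 417.3 in the control channel, and on replicate 1, with 373 and 169. The arrays had 64.9% to 72.6% of spots well above background in a channel and no saturated spot, and all 41 members tested were above background in both genotypes on all arrays. The number of arrays limits the precision. Of the targeted genes, the brightest Fgfr1 probe stood at -0.40 ± 0.10 (adjusted p = 0.117) and the Fgfr2 probe at 0.59 ± 0.07 (adjusted p = 0.0356); whether these probes lie inside the deleted exons is not stated in the sources used here, so they do not check the labels. All 8 ureteric mesenchyme and 12 urothelium markers were detected, and so was every listed marker of smooth muscle, blood, vessels, mesothelium, kidney and nerve. The ureteric mesenchyme markers lay higher, with 7 of 8 above 0, a median log2 ratio of 0.35, 1 called higher, and a summed level of 96326 to 121835 (scaled intensity) in cDKO and 78170 to 111404 in control. All 6 kidney and nephron progenitor markers lay above 0 (median 0.15, none called), summing to 10235 to 12424 and 8397 to 12381. Urothelium markers lay above 0 in 3 of 12 (1 called lower), at 190228 to 250039 and 200295 to 219350, and those of smooth muscle in 4 of 5 (none called), at 10410 to 23119 and 9096 to 14959. The summed level of 7 endothelial markers was 61461 to 71834 in cDKO and 73793 to 88105 in control, and that of 8 macrophage markers 15011 to 18815 and 19719 to 24015. In each of these lists 1 marker lay above 0 and 1 was called lower. For 9 erythroid markers it was 316301 to 448720 and 420683 to 530139, and all of them lay below 0 (2 called lower). Mesothelium markers lay above 0 in 1 of 4 (1 called lower), and those of nerve in 2 of 6 (none called). The part of these cells in the members' ratios was not tested.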

How the data were processed

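The members, the gene lists and the E2F and CHR letters were chosen with earlier results of these data known. Per the labels' protocols, total RNA was amplified, dye-labelled (Agilent Low Input Quick Amp) and hybridised as cDKO and control pairs by the authors. Per the file headers, spot values came from Agilent Feature Extraction 10.7.3.1 (named in the submitters' processing notes too), and probe coordinates are of build mm9. The deposited files give spot and background intensity per channel, and, per the file headers, processed intensity and a log10 ratio (red over green). A value table deposited by the authors holds a signed fold per probe; set against the scanner log ratios (correlation 0.839 and 0.838 on replicates 1 and 3, -0.863 and -0.843 on 2 and 4), a positive fold means higher cDKO signal. Its median is 1 in each column, and no source used here says how it was centred.

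Background was removed from mean intensity by normexp (offset 50), followed by loess (span 0.3) on the log2 ratios without control or outlier spots. The 4 spots of a probe were averaged. A probe was kept with at least 3 spots well above background on all 4 arrays in one genotype (25591 of 39429, 64.9%), and the brightest kept probe stood for its gene. Of the probes, 28280 were named by accession in RefSeq genes (GRCm38.p6), 3393 by a current symbol, 243 by a synonym and 55 by the members' rule, and 7458 kept the file's name. Ratios of cDKO over control were modelled with lmFit and eBayes of limma 3.58.1 (R 4.3.3), dye term included, over all 19365 genes, two-sided, with Benjamini-Hochberg adjustment (2 residual and 4.53 prior degrees of freedom). Errors are SE of the fit over 4 arrays. Levels are log2 intensity after loess and Aquantile scaling. The fit was tested on simulated data. Named with values on each array were the members with the 10 smallest p; the other members were given by role, and for each related list the 2 genes with the smallest p. Values of other members on single arrays, and Gins2 among them, were chosen after their values were seen. Alternatives are in the closing section.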

Additional observations from a re-analysis of the deposited data

How the results depend on the processing

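The fit was itself paired, because every array sets cDKO against control and its ratio is taken within the array. Replicate and pair are the same thing, so no separate paired analysis was run. The members' median kept its sign under all 16 alternatives and ranged from 0.02 (within slide 2) to 0.13 (within slide 1). Within slide 2 the median over all genes was 0.008. Each of the members' medians was less than 1 SD over arrays (0.102) away from the reported 0.09. That SD is larger than 0.09, so a median of 0 would have met the same measure, which cannot show stability. Between 24 and 29 members lay above 0. No member was called except with the slide as a block (7) and without replicate 4 (1; the other leave-one-out fits gave 0). The count of called genes over the whole array moved far more: 255 with median centring, 1 without a filter on dim probes, 258 without a dye term, 2418 with the slide as a block, 2 with a sex term, 551 within slide 1, 0 within slide 2 (limma), and 34 to 403 without 1 replicate each. Signs turned for 13 members, none of them over 0.152 in size. With the scanner software's processed signals Gins1 was -0.0185 and Prim1 -0.0324, with median centring Mcm7 was -0.0271 and Prim1 -0.0413, with the mean of all probes Cdc6 was 0.1064 and Prim2 0.0101, and with the authors' deposited value table Gins1 was -0.0310 and Prim1 -0.0463. Within slide 1, Pcna was -0.0095, Pola1 -0.0764 and Prim1 -0.0055. Within slide 2, Mcm5 was -0.0166, Mcm7 -0.0600, E2f1 -0.0111, Cdc45 0.0925, Gins1 -0.0066, Orc1 -0.0116, Prim2 0.0071, Tk1 0.0098 and Chaf1b -0.0010. Without 1 replicate each the ranges were Mcm5 -0.0141 to 0.1956, Mcm7 -0.0401 to 0.1137, Cdc45 -0.2317 to 0.0036, Pola1 -0.0251 to 0.1372, Prim1 -0.0035 to 0.0153 and Tk1 -0.1204 to 0.0034. The causes were not tested.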
